A study of Mus musculus with 68 samples.

Results

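The 10 genes described here lie on mouse chromosome 11 on either side of Sparc, the gene disrupted in the SPARC-/- mice of this series. They were listed to ask whether genes close to the deleted one, which travel with it when a mutant line is bred, differ in level between SPARC-/- mice and mice with an intact Sparc gene. The 10 genes stand for 10 of 19505 genes with a named probe set on the arrays, and each is read by 1 probe set. Counted in gene order among the 1475 chromosome 11 genes with a named probe set, Anxa6, Ccdc69 and Gm2a lie 7, 6 and 5 positions before Sparc. Slc36a1 and Fat2 lie 2 and 1 positions before it, and Atox1, G3bp1 and Glra1 lie 1, 2 and 3 positions after it. The other 2 genes are far away: Pttg1 lies 147 positions before Sparc and Tvp23b 127 positions after it. The genes were selected on their place beside Sparc and on differences between SPARC-null and SPARC-intact groups in these same log2 values, which were known when the list was made. Differences in that contrast are therefore given as a description, with no p-value.

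A targeted allele made in embryonic stem cells of one strain and crossed into another keeps a stretch of the donor chromosome around the target, and genes within that stretch are called passenger genes. Their levels can differ between a mutant line and its controls through donor alleles, and an array probe can also read a donor sequence variant as a change in level. The labels name neither strains nor backcrosses, and donor alleles were not read, so both routes were not tested.

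The transgene is TRAMP, in which the probasin promoter drives simian virus T antigens in prostate epithelium. SPARC is a secreted protein that binds collagen, and OPN is osteopontin, a secreted phosphoprotein. With the transgene there were 14 mice with genotype TRAMP +/- and no other listed mutation (called TRAMP here), 9 mice with OPN-/-TRAMP +/- (OPN-null TRAMP) and 15 mice with SPARC-/- TRAMP +/- (SPARC-null TRAMP). Without it there were 10 TRAMP -/- mice (called wild-type here), 8 OPN-/-TRAMP -/- mice (OPN-null) and 11 SPARC-/- TRAMP -/- mice (SPARC-null). Each genotype had an early and a late group, and within a stage the SPARC-null mice were mostly older. The early groups were 16 weeks old in TRAMP and wild-type, 16 to 17 in both OPN-null groups, 16 to 18 in SPARC-null and 18 to 19 in SPARC-null TRAMP. The late groups were 24 weeks old in wild-type and OPN-null, 25 to 27 in SPARC-null, 24 to 25 in TRAMP, 24 to 27 in OPN-null TRAMP and 24 to 29 in SPARC-null TRAMP. Ages did not overlap between SPARC-null and control mice in the early groups with the transgene and the late groups without it, so age in weeks and genotype cannot be told apart there. In the early groups without the transgene they overlapped only through array S1, at 16 weeks. The other early SPARC-null mice were 18 weeks old, so age and genotype are hardly separable there too. The labels call every sample a prostate tumour, also those of mice without the transgene. SPARC-intact means TRAMP with OPN-null TRAMP, or wild-type with OPN-null, and the OPN mutation is thus among the controls. The labels do not say whether littermates served as controls.

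Sequences before the start are shown for Sparc, for its next gene Atox1, and for Pttg1 and Gm2a, the genes with the largest differences among the far and the near ones that had an entry. These are the 250 bases before the annotated start, 5′ to 3′ on the gene's strand, from RefSeq on GRCm38.p6, in which 6 of the 10 genes had an entry. Capitals mark any of 5 motifs found on either strand, and no 2 marked motifs overlap. The motifs were CCAAT (the CCAAT box, in 33.9% of 32841 windows of the same length), TTTGAA (the cell cycle homology element, 16%), GGGCGG (the GC box, 32.7%), TATAAA (the TATA box, 12.4%) and CACGTG (the E-box, 6.02%).
Pttg1, chr11:43425982-43426231, minus strand: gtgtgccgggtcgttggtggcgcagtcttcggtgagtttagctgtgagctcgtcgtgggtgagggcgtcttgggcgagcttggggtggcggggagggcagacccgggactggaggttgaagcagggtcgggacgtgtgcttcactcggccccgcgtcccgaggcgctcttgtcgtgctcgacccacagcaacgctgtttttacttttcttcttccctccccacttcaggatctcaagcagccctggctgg
Gm2a, chr11:55097735-55097984, plus strand: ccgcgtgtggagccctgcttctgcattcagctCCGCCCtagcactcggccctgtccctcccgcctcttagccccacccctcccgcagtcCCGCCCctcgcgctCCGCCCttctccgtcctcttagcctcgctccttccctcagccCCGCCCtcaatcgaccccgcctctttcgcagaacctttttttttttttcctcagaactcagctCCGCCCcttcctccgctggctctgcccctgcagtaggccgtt
Sparc, chr11:55420081-55420330, minus strand: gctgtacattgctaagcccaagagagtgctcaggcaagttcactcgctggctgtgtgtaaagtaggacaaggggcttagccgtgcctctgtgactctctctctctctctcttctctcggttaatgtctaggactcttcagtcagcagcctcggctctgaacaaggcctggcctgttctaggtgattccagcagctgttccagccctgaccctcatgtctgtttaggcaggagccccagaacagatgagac
Atox1, chr11:55461209-55461458, minus strand: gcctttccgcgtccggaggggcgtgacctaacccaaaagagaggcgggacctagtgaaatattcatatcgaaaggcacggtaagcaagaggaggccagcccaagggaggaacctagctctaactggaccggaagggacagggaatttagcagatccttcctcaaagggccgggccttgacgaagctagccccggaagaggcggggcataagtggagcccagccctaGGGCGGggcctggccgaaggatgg
The Gm2a window held 5 GC boxes and the Atox1 window 1, whereas the windows of Pttg1 and Sparc held none of the 5 motifs. Among the windows not printed, G3bp1 held 3 CCAAT boxes, 1 GC box and 1 TATA box, Slc36a1 held 1 E-box, and Fat2 held 1 cell cycle homology element. These matches describe letters in a window and say nothing about binding.

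The arrays gave 22206 probe sets to test, on a log2 scale on which 1 unit is a doubling. Array quality, measured as the area under the curve (AUC) that separates exonic positive from intronic negative control probe sets, ran from 0.67 to 0.80, and 7 arrays were below 0.7. It averaged 0.757 in SPARC-null and 0.735 in SPARC-intact mice without the transgene, and 0.735 and 0.728 with it. Luminal and smooth muscle markers were higher in SPARC-null than in SPARC-intact mice with the transgene, with 5 of 9 and 5 of 8 called, and neuroendocrine markers were lower, with 5 of 8 called. Of all probe sets 2.37% were called higher there and 2.18% lower. Against TRAMP alone none of these luminal, smooth muscle and neuroendocrine markers was called, where only 0.027% of all probe sets were called. The median differences of the 3 lists were 0.20, -0.10 and 0.01 there. In OPN-null TRAMP against TRAMP mice 6 of 9 luminal and 7 of 8 smooth muscle markers were lower and 7 of 8 neuroendocrine markers higher. In that comparison 4.78% of all probe sets were called lower and 4.35% higher. The mean smooth muscle score (log2, relative to all arrays) was -0.02 in SPARC-null TRAMP, 0.02 in TRAMP and -0.84 in OPN-null TRAMP mice, with a range of -2.96 to 0.36 in the last. Without the transgene the luminal markers Epcam (0.52) and Krt8 (0.41) and the plasma cell gene Jchain (0.80) were called higher in SPARC-null than in SPARC-intact mice. Cd3d (-0.39) and Upk2 (-0.47) were called lower, where 4.58% of all probe sets were called. Mean scores there were 0.56 and -0.14 for skeletal muscle and -0.22 and 0.52 for seminal vesicle, with wide spread. The part of such content was not tested. Fewer cells of a type and less RNA per cell cannot be told apart in such bulk samples. Array O12, labelled as an early SPARC-/- TRAMP -/- mouse, was left out. Its Sparc level of 7.24 lay outside the range of the other 11 SPARC-null arrays and inside that of OPN-null, and its Pttg1 level of 8.26 did the same. Labels name single animals, but do not say how they were housed or bred.

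Sparc itself was lower in the SPARC-null groups. Its mean exceeded 64.2% of the negative control probe sets in SPARC-null and 75% in SPARC-intact mice without the transgene, and 65.4% and 70.2% with it, so the signal was modest in every group. Without the transgene its lowest, median and highest log2 levels were 5.73, 6.22 and 6.59 in the 11 SPARC-null mice and 6.36, 6.96 and 7.55 in the 18 SPARC-intact mice. The ranges overlapped only slightly. With the transgene they were 5.77, 6.35 and 6.96 in 15 SPARC-null TRAMP mice and 6.18, 6.67 and 7.35 in 23 SPARC-intact mice, with wide overlap. In limma, with Benjamini-Hochberg adjustment over all probe sets, the difference was -0.82 (SE 0.13, adjusted p = 0.00237) without the transgene and -0.31 (SE 0.09, adjusted p = 0.0372) with it. The call with the transgene was lost at a like size in the 67-array fit (-0.31, adjusted p = 0.0511), against TRAMP alone (-0.30, adjusted p = 0.469) and against OPN-null TRAMP alone (-0.32, adjusted p = 0.0648). It was lost in early mice (-0.15, adjusted p = 0.65), and kept in 26 of 38 limma fits that left out 1 array each. The call without it was lost with age in weeks as a covariate, where the difference was larger (-1.23, adjusted p = 0.0685), and in early mice, where it was about as large (-0.79, adjusted p = 0.167). The labels do not say which part of the transcript the probes read, so the remaining signal does not check the allele.

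Pttg1 encodes securin, which holds separase inactive until chromosomes part at anaphase. Without the transgene its log2 level in the 11 SPARC-null mice had a lowest value of 6.98, a median of 7.23 and a highest value of 7.76. In the 10 wild-type mice these were 7.78, 8.12 and 8.71, and in the 8 OPN-null mice 7.62, 8.07 and 8.29. All 11 SPARC-null arrays thus lay below every wild-type array, and 9 of the 11 lay below every SPARC-intact array. Over all probe sets, the ranges of SPARC-null and wild-type were apart in 0.0585%. The difference from SPARC-intact mice was -0.78 (SE 0.10), which is a 1.72-fold lower level, and it was -0.75 in early and -0.81 in late mice. With age in weeks as a covariate it was -0.55.

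With the transgene no such difference in Pttg1 was detectable at this precision. SPARC-null TRAMP mice had a lowest, median and highest level of 7.19, 7.62 and 7.99, against 7.31, 7.68 and 8.14 in TRAMP and 7.21, 7.76 and 8.30 in OPN-null TRAMP. The 3 ranges overlapped almost in full, and the difference was -0.03 (SE 0.09). It was -0.26 (SE 0.13) in early mice, 0.20 (SE 0.12) in late mice and 0.14 with age as a covariate. The 3 late OPN-null TRAMP arrays, at 7.21, 7.23 and 7.35, lay below all 6 early ones and entered that late comparison.

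**Figure D1:**
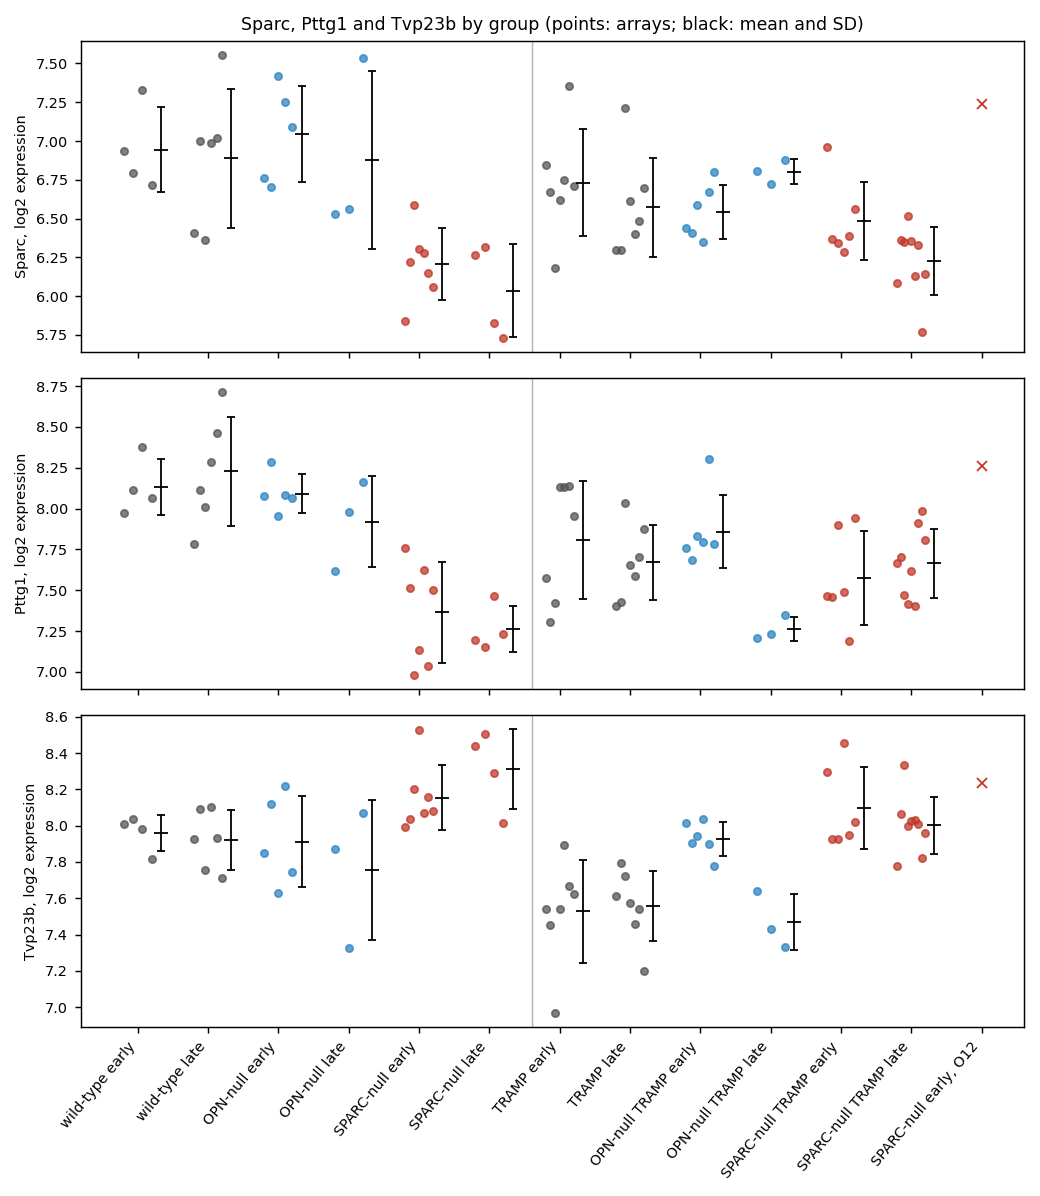
Log2 expression (y axis) of Sparc, Pttg1 and Tvp23b in each array, by group (x axis); points are arrays, black marks are group mean and SD, red marks SPARC-null, blue OPN-null and grey neither, and the cross is the array O12 that was left out. Pttg1 means are 7.33 in SPARC-null and 8.19 in wild-type mice, but 7.63 and 7.74 in SPARC-null TRAMP and TRAMP.

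Tvp23b encodes a membrane protein of the Golgi apparatus, and it was higher in SPARC-null mice in both settings. With the transgene the lowest, median and highest log2 levels were 7.78, 8.01 and 8.46 in the 15 SPARC-null TRAMP mice, 6.97, 7.56 and 7.90 in the 14 TRAMP mice, and 7.33, 7.90 and 8.04 in the 9 OPN-null TRAMP mice. Of the 15 SPARC-null TRAMP arrays 13 lay above the highest TRAMP array, and 4 lay above every SPARC-intact array. The difference from SPARC-intact mice was 0.43 (SE 0.07), or 1.35-fold, with 0.37 in early and 0.49 in late mice. Tvp23b was called in the main fit with the transgene but not in early mice, where 0.045% of all probe sets were called.

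Without the transgene the levels of Tvp23b were 7.99, 8.16 and 8.53 in SPARC-null mice, 7.71, 7.96 and 8.11 in wild-type mice and 7.33, 7.86 and 8.22 in OPN-null mice. Of the 11 SPARC-null arrays 6 lay above the highest wild-type array, and all 11 lay above the SPARC-intact median. The difference was 0.35 (SE 0.09), or 1.27-fold. It was 0.14 with age in weeks as a covariate, a fit in which no probe set of the 22206 was called. Tvp23b was called without the transgene in the main fit, but not with AUC as a covariate or without arrays of AUC under 0.7. Nor was it called against wild-type alone or in early mice.

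The 8 genes within 7 positions of Sparc differed little. With the transgene their differences ran from -0.08 (Glra1) to 0.30 (Gm2a), with a median of 0.04, and without it from -0.16 (Ccdc69) to 0.22 (Anxa6), with a median of 0.01. None of the 8 was called in either setting of the main fits at an adjusted p under 0.05, and 2 of 8 differences exceeded 2 SE in each. Among the alternatives Gm2a was called with the transgene against OPN-null TRAMP alone (11.5% of all called) and in late mice (16.1% of all called). Anxa6 was called without the transgene in a fit with 1 weight per array, where 35.5% of all were called. Of all 10 genes 1 (Tvp23b) was called with the transgene, where 4.54% of all probe sets were called. Without it 2 (Pttg1 and Tvp23b) were called, where 4.58% of all were. These counts come from the contrast that the rule used, and nothing is read from them.

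**Figure D2:**
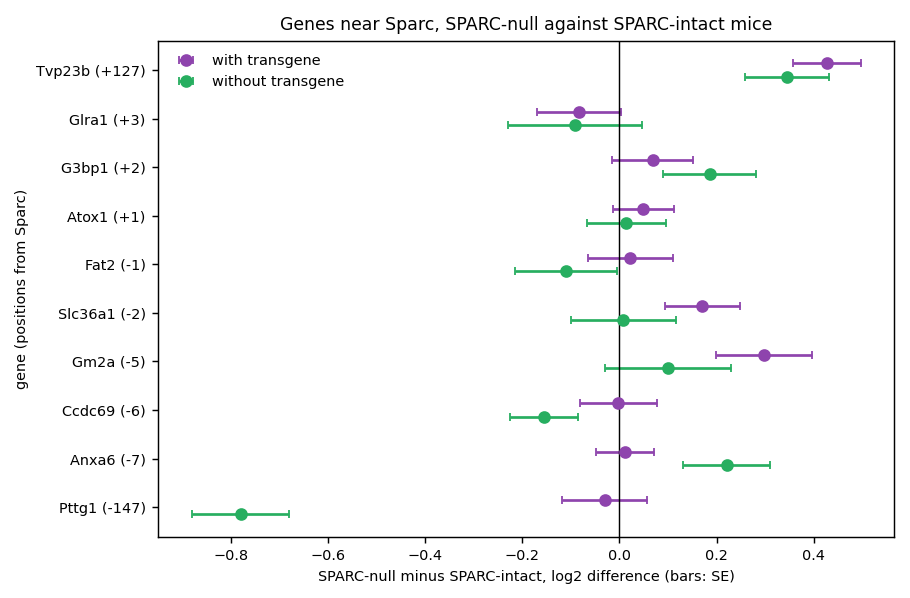
Difference of SPARC-null minus SPARC-intact mice in log2 units (x axis) for each gene in its order on the chromosome (y axis, positions from Sparc in brackets), with and without the transgene; bars are SE. Pttg1 differs by -0.78 without and -0.03 with the transgene, Tvp23b by 0.35 and 0.43, and the 8 genes next to Sparc lie between -0.16 and 0.30.

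Of the genes before Sparc, Gm2a, the activator protein that presents the ganglioside GM2 to lysosomal hexosaminidase, had the largest difference with the transgene, 0.30 (SE 0.10). Its lowest, median and highest levels were 6.28, 6.76 and 7.16 in SPARC-null TRAMP, 5.87, 6.54 and 7.14 in TRAMP and 5.54, 6.47 and 6.78 in OPN-null TRAMP mice. Of the 15 SPARC-null TRAMP arrays 13 lay above the SPARC-intact median, while the ranges overlapped. The difference was 0.05 in early and 0.54 in late mice, and 0.15 against TRAMP alone against 0.44 against OPN-null TRAMP alone. The 3 late OPN-null TRAMP arrays had 5.54, 6.03 and 6.35. Without the transgene the difference was 0.10 (SE 0.13).

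Slc36a1, a proton-coupled amino acid transporter of lysosomes and the cell surface, differed by 0.17 (SE 0.08) with the transgene and 0.01 (SE 0.11) without it. Its group means ran from 7.72 in late OPN-null TRAMP to 8.31 in early wild-type mice. Fat2, a giant protocadherin of epithelia and the cerebellum, differed by 0.02 (SE 0.09) and -0.11 (SE 0.10). Anxa6, a calcium-dependent membrane-binding annexin, differed by 0.01 (SE 0.06) with the transgene and 0.22 (SE 0.09) without it. The lowest, median and highest Anxa6 levels without the transgene were 7.31, 7.76 and 7.997 in SPARC-null and 6.94, 7.52 and 7.82 in SPARC-intact mice, so that 9 of 11 SPARC-null arrays were above the SPARC-intact median. With age in weeks as a covariate this difference was -0.03. Ccdc69, a coiled-coil protein that associates with the mitotic spindle, differed by 0.00 (SE 0.08) and -0.16 (SE 0.07).

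Of the genes after Sparc, Atox1, the copper chaperone that delivers copper to the secretory-pathway ATPases, differed by 0.05 (SE 0.06) and 0.01 (SE 0.08). Its group means ran only from 8.46 to 9.06. G3bp1, which nucleates stress granules, differed by 0.07 (SE 0.08) with the transgene and 0.19 (SE 0.10) without it. Its early SPARC-null TRAMP mice had the highest group mean, 7.79, with an SD of 0.46, and the late ones the lowest, 7.38 (SD 0.20). Glra1, a subunit of the glycine receptor of spinal cord and brainstem, had a mean of 4.66, which exceeded only 37.7% of the negative control probe sets. Its differences of -0.08 (SE 0.09) and -0.09 (SE 0.14) were therefore at a background signal.

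**Figure D3:**
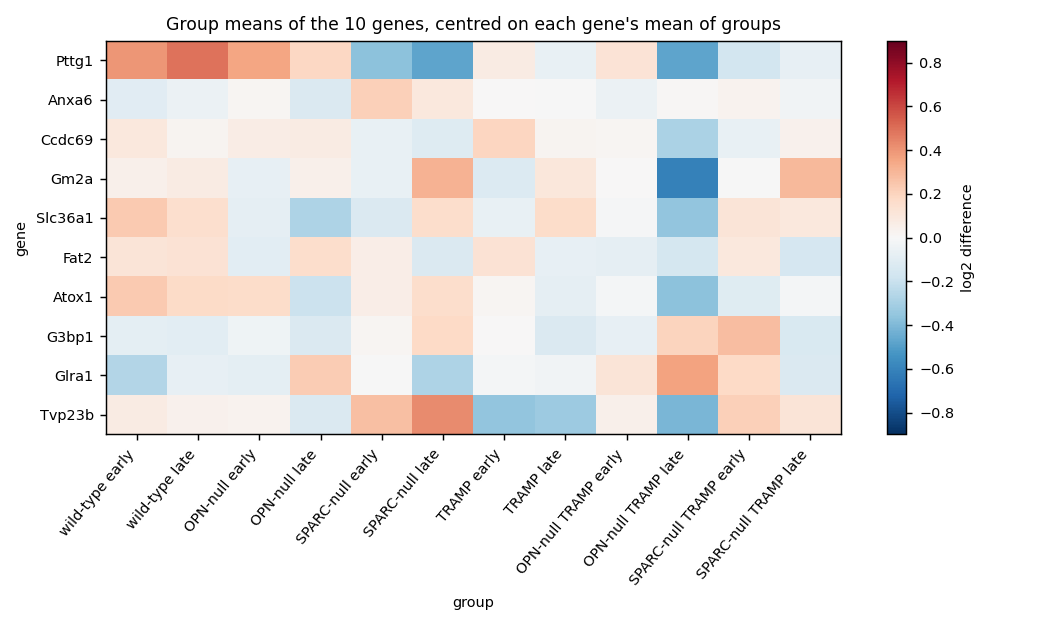
Group means of the 10 genes (rows, in chromosome order) in the 12 groups (columns), as log2 differences from each gene's mean over the groups. Pttg1 is lowest in late SPARC-null (7.26) and late OPN-null TRAMP (7.26) mice, and Tvp23b is highest in late SPARC-null mice (8.31).

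The 10 genes did not vary as a block between arrays of the same group. Within groups, Pearson's r over 67 arrays had a median of -0.02 in the 45 pairs and ran from -0.43 (Fat2 with Gm2a) to 0.64 (Fat2 with Glra1). These arrays share the normalization, and the values are descriptive. Values within groups leave out the differences between genotypes. They therefore cannot show whether the 10 genes differ together between SPARC-null and SPARC-intact mice. For the 3 genes with the largest SPARC differences, the most similar genes were named by r over all 67 arrays, which also holds the differences between groups that chose the 3. For Pttg1 these were Sparc (r = 0.56, and 0.28 within groups), Fmod (0.52 and 0.00) and Rbm12b2 (0.52 and 0.42), so that the likeness to Sparc and Fmod lay mostly or wholly between groups. For Tvp23b they were Rps10 (0.68 and 0.54), Arf1 (0.68 and 0.53) and Srp9 (0.66 and 0.52), and for Gm2a they were Pam (0.77 and 0.72), Dstn (0.76 and 0.77) and Rnaset2a (0.76 and 0.68). Arf1 lies 59 positions after Sparc, and the others but Sparc lie on other chromosomes.

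The gap between both settings for Pttg1 was 0.75 (SE 0.14) on the log2 scale, as SPARC difference with minus without the transgene. It was the only one of the 10 genes called in the interaction, where 0.491% of all probe sets were called, and again nothing is read from this, since the rule used both of its contrasts. For Sparc the same term was 0.51 (SE 0.16, limma adjusted p = 0.12). For Tvp23b it was 0.08 (SE 0.11).

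Beyond the 10 genes, the other 390 genes within 200 positions of Sparc show how common differences were in this stretch. With the transgene 15 of them (3.85%) were called, against 4.54% of all probe sets. Without it 24 (6.15%) were called, against 4.58%. Within 100 positions the share was 1.56% (3 of 192) with the transgene and 8.85% (17 of 192) without it. Of the 12 other genes within 10 positions, none was called with the transgene, and 1, Hint1, a nucleotide hydrolase, was called without it (0.48, adjusted p = 0.00998 in limma). By the share of genes called, chromosome 11 ranked 11 of 20 chromosomes with the transgene (4.2%) and 2 of 20 without it (5.83%).

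Only 2 of the 390 genes were called in the same direction in both settings, Pwwp2a and Odf4, which is 0.513% of the 390 against 0.459% of all probe sets. Pwwp2a, a nucleosome-binding protein that recognises the histone variant H2A.Z, lies 142 positions before Sparc and 5 from Pttg1. With the transgene its lowest, median and highest levels were 7.66, 7.93 and 8.65 in 15 SPARC-null TRAMP mice and 7.03, 7.48 and 8.04 in 23 SPARC-intact mice, which overlapped in part. It was higher by 0.43 (SE 0.08, limma adjusted p = 0.00116) with the transgene and by 0.30 (SE 0.08, adjusted p = 0.031) without it. The first call was kept in 9 of 12 alternatives and lost against TRAMP alone (0.45, adjusted p = 0.0619), in early mice (0.54, adjusted p = 0.11) and in late mice (0.33, adjusted p = 0.0523). The second was kept in only 6 of 13. Its difference stayed between 0.24 and 0.36, but the limma adjusted p was 0.175 with AUC and 0.576 with age as a covariate, 0.115 without arrays of AUC under 0.7, 0.0516 in the 67-array fit, 0.278 against wild-type alone, 0.672 in early and 0.0854 in late mice. It was kept in 21 of 29 limma fits that left out 1 array each. Odf4, known from sperm tails, lies 167 positions after Sparc and differed by -0.41 (SE 0.12, limma adjusted p = 0.0469) and -0.49 (SE 0.12, adjusted p = 0.0251). Its signal was low, with a mean log2 level of 5.74 beside a median of 5.38 over the negative control probe sets. The call with the transgene was kept in only 13 of 38 limma fits that left out 1 array each, and it was lost with age as a covariate (-0.38, adjusted p = 0.188) and in early mice (-0.22, adjusted p = 0.639). The call without it was kept in 26 of 29 such fits, and it was lost with AUC as a covariate (-0.23, adjusted p = 0.32), without arrays of AUC under 0.7 (-0.40, adjusted p = 0.0902), with age as a covariate (-0.68, adjusted p = 0.318) and in early mice (-0.10, adjusted p = 0.975). Both were lost against TRAMP or wild-type mice alone, where Odf4 differed by only -0.13 and -0.12, beside OPN-null medians of 6.09 and 6.02 with and without the transgene and medians of 5.69 and 5.59 in TRAMP and wild-type mice.

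**Figure D4:**
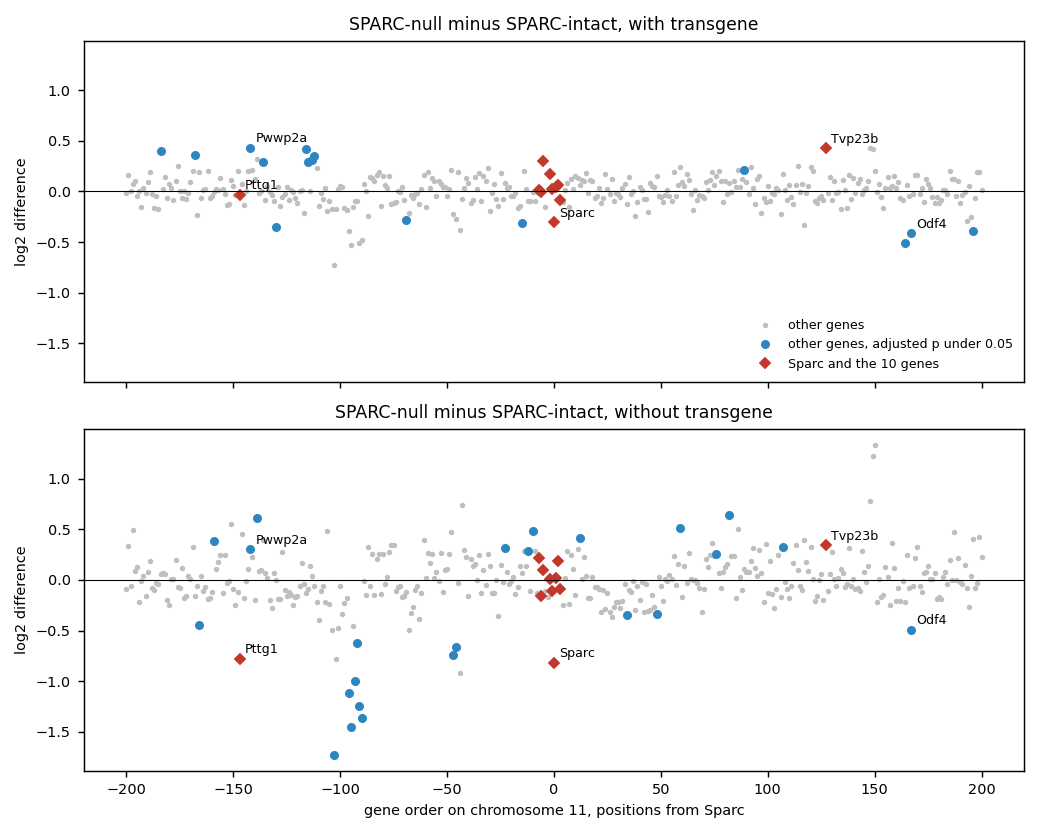
Log2 difference of SPARC-null minus SPARC-intact mice (y axis) for measured genes within 200 positions of Sparc in gene order on chromosome 11 (x axis), with the transgene (top) and without it (bottom); blue points are other genes with an adjusted p under 0.05 and red diamonds are Sparc and the 10 genes. With the transgene 15 other genes are blue and without it 24, of which 2, Pwwp2a and Odf4, are blue in both.

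Next to the 2 far genes there was no run of calls. Of the 20 genes within 10 positions of Pttg1, Pwwp2a was called with the transgene, and Pwwp2a and Ublcp1 without it. Of the 20 genes within 10 positions of Tvp23b, none was called in either setting. Elsewhere, some but not all genes from 103 to 90 positions before Sparc were lower without the transgene, by values from -0.62 to -1.73. These were the olfactory receptor genes Olfr1392, Olfr1386, Olfr1385, Olfr1383, Olfr1382, Olfr1381 and Olfr1380. Of the 49 olfactory receptor genes within 200 positions 9 were called lower without the transgene and none with it. With AUC as a covariate none of the 49 was called, and the largest drop was -1.05, in a fit that called 242 probe sets in place of 1016. Of all 390 other genes in the stretch, 1 was called without the transgene against wild-type alone, beside 0.225% of all probe sets. In early mice 0 were called, beside 0.018% of all, and with age as a covariate 0, beside 0% of all. Near-identical receptor genes may share probes, and the part of shared probes was not tested.

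The number of calls in the stretch changed with the controls, as it did over all probe sets. Against TRAMP alone 0 of the 390 genes were called in SPARC-null TRAMP mice, beside 0.027% of all probe sets (6 of 22206). Against wild-type alone 1 of the 390 (0.256%) was called in SPARC-null mice, beside 0.225% of all. Against OPN-null TRAMP alone 39 of the 390 (10%) were called, beside 11.5% of all, and against OPN-null alone 54 (13.8%), beside 11.9%. The stretch thus stayed near the share of all probe sets under each set of controls. Against TRAMP alone Tvp23b differed by 0.51 (SE 0.08), and against wild-type alone Pttg1 differed by -0.87 (SE 0.11). Both values belong to the contrasts that chose the genes and are given as a description.

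The transgene contrasts did not enter the rule, but they share their arrays with the contrasts that did. Their p-values are thus not independent of how the genes were chosen. Pttg1 fell by 0.44 in TRAMP against wild-type mice (difference -0.44, SE 0.11, limma adjusted p = 0.0214) and by as much in OPN-null TRAMP against OPN-null mice (-0.44, SE 0.13, adjusted p = 0.0261), a comparison added after the data were seen. In SPARC-null TRAMP against SPARC-null mice it differed by 0.31 (SE 0.11, adjusted p = 0.0644), the opposite sign. The limma adjusted p of that last comparison was 0.00572 with AUC and 0.0261 with age as a covariate. In the OPN-null comparison the call was lost with little change in size. The difference was -0.38 (limma adjusted p = 0.0617) with age as a covariate, -0.39 (0.0777) with 1 weight per array, -0.43 (0.0619) without array OT2, -0.43 (0.0611) without O14 and -0.38 (0.0768) without O7. In TRAMP against wild-type it was -0.40 (0.101) without array B11 and -0.42 (0.0528) without array B5. Of the 14 TRAMP arrays 8 lay below every wild-type array.

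Tvp23b fell by 0.40 in TRAMP against wild-type mice (difference -0.40, SE 0.09, limma adjusted p = 0.0071), and 11 of 14 TRAMP arrays lay below every wild-type array. It differed by -0.18 (SE 0.09, adjusted p = 0.193) in SPARC-null TRAMP against SPARC-null and by -0.14 (SE 0.11, adjusted p = 0.513) in OPN-null TRAMP against OPN-null mice. The 2 genes were the only ones of the 10 called in TRAMP against wild-type mice, both lower, where 0.234% of all probe sets were called lower. The TRAMP and wild-type arrays were also controls in the contrasts that chose the genes, so nothing is read from this count. In SPARC-null TRAMP against SPARC-null mice 0 of 10 were called in limma, with 3 at an unadjusted p under 0.05, where 7.89% of all probe sets were called and 22.2% had such an unadjusted p. In OPN-null TRAMP against OPN-null mice Pttg1 was the only one of 10, where 2.8% were called lower. These arrays were controls for the choice of genes as well, so nothing is read from that count either. The 8 genes next to Sparc had no call in any of the 3 transgene comparisons. Their differences ran from -0.29 (Gm2a, in the OPN-null background) to 0.17 (Glra1, in the same).

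**Figure D5:**
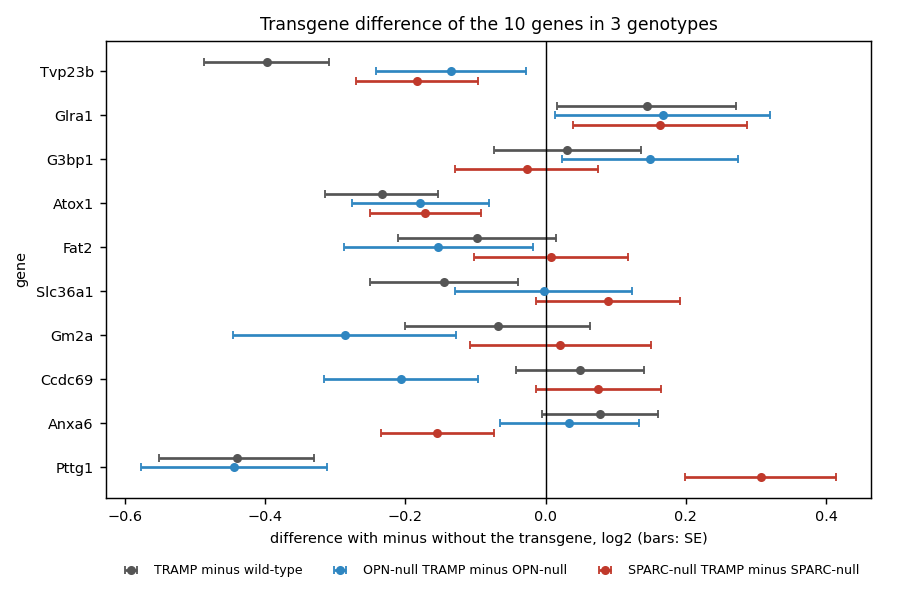
Log2 difference of mice with minus without the transgene (x axis) for the 10 genes (y axis, chromosome order) in TRAMP against wild-type, OPN-null TRAMP against OPN-null and SPARC-null TRAMP against SPARC-null mice; bars are SE. Pttg1 lies at -0.44, -0.44 and 0.31, and Tvp23b at -0.40, -0.14 and -0.18.

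Loss of OPN called none of the 10 genes. In OPN-null TRAMP against TRAMP mice limma called 0 of 10, with 4 at an unadjusted p under 0.05, where 9.12% of all probe sets were called and 22.8% had such an unadjusted p. The differences ran from -0.29 (Gm2a) to 0.26 (Glra1). In OPN-null against wild-type mice 0 of 10 were called, with 2 unadjusted, where 0.0045% were called and 15.7% passed unadjusted, and Slc36a1 had the largest difference, -0.37 (SE 0.13, adjusted p = 0.18). In late mice alone, taken after the data were seen, OPN-null TRAMP mice had lower Gm2a (-0.71, SE 0.20, adjusted p = 0.00887) and lower Slc36a1 (-0.52, SE 0.15, adjusted p = 0.0132) than TRAMP mice, where 10.4% of probe sets were called lower. In the same comparison 8 of 9 luminal and 7 of 8 smooth muscle markers were lower and 7 of 8 neuroendocrine markers higher, with medians of -2.78, -3.09 and 1.54, and the part of cell content in both genes was not tested. Of all probe sets 11.1% were called higher there.

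Age called none of the 10 genes over genotypes. Late minus early differences ran from -0.21 (Pttg1) to 0.00 (Anxa6) with the transgene, where limma called 0 of 10, with 2 unadjusted, against 6.59% and 19.5% of all probe sets. Without it they ran from -0.11 (Atox1) to 0.18 (Gm2a), with 0 of 10 called, 0 unadjusted, and 0% of all called (4.62% unadjusted). In OPN-null TRAMP mice alone, also taken after the data were seen, 4 of 10 were lower in the 3 late than in the 6 early mice, where 9.59% of probe sets were called lower. These were Gm2a (-0.61, adjusted p = 0.0264), Pttg1 (-0.60, adjusted p = 0.0144), Tvp23b (-0.46, adjusted p = 0.0175) and Atox1 (-0.35, adjusted p = 0.0454). Here too 8 of 9 luminal and 8 of 8 smooth muscle markers were lower and 7 of 8 neuroendocrine markers higher, and their part was not tested. Of all probe sets 12.8% were called higher in this comparison.

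The partners of each gene were read from lists written for this report, without the 10 genes. For securin, 25 genes of sister chromatid separation and mitotic exit held no call in SPARC-null against SPARC-intact mice, with or without the transgene, and their median differences were -0.03 and -0.03. Likewise 0 of 14 proliferation genes were called in either, with Mki67 at -0.10 (SE 0.15) and -0.15 (SE 0.11). In TRAMP against wild-type mice, where Pttg1 fell, 11 of the 14 proliferation genes rose, with a median difference of 0.59 against 0.01 over all probe sets, of which 0.905% were called higher. Ube2c, a ubiquitin-conjugating enzyme of mitotic exit, rose by 1.55 (adjusted p = 4.71e-09), the marker Mki67 by 1.51 (adjusted p = 1.32e-08) and the replication clamp Pcna by 1.5 (adjusted p = 9.71e-08). Of the 25 securin partners 5 rose and 0 fell, with Sgo1, the shugoshin that protects centromeric cohesin, at 0.78 (adjusted p = 0.00556). In SPARC-null TRAMP against SPARC-null mice 13 of 14 proliferation genes and 10 of 25 partners rose and none fell, where 4.16% of all probe sets were called higher.

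For Tvp23b, the list of TVP23 and YIPF Golgi proteins had 0 of 14 called with the transgene and 1 without it, Yif1b, a protein of vesicle transport (0.46, limma adjusted p = 0.0432), with medians of 0.12 and 0.25. In TRAMP against wild-type mice 0 of 14 were called, with a median of -0.18. For Atox1, 0 of 11 genes of copper handling were called in either SPARC contrast. For G3bp1, 1 of 12 stress granule genes was lower with the transgene, Fxr2 (-0.39, adjusted p = 0.0352), and 1 was higher without it, G3bp2, the paralog of G3bp1 (0.52, adjusted p = 0.0226).

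For Gm2a, 1 of 9 measured genes of lysosomal sphingolipid breakdown was higher with the transgene: Hexa, the alpha subunit of the hexosaminidase that Gm2a serves (0.30, limma adjusted p = 0.00309). None of the 9 was called without it, although all 9 differences were positive, with a median of 0.23. For Anxa6, 3 of 11 other annexins were higher with the transgene, Anxa4 (1.15, adjusted p = 6.23e-06), Anxa3 (0.70, adjusted p = 0.00361) and Anxa2 (0.60, adjusted p = 0.000876), while Anxa6 stood at 0.01. Beside these, the luminal marker Pbsn, the secreted protein probasin, was higher by 1.60 (adjusted p = 0.00125), and the part of epithelial content was not tested. None of Anxa4 (0.19), Anxa3 (0.28), Anxa2 (0.17), Pbsn (0.49) and Hexa (0.19) was called in SPARC-null TRAMP against TRAMP mice alone, with limma adjusted p from 0.567 to 0.885. Only 0.027% of all probe sets were called in that comparison. Against OPN-null TRAMP alone, where 11.5% of all were called, all 5 genes were, with Anxa4 at 2.11 and Pbsn at 2.70. OPN-null TRAMP mice themselves differed from TRAMP mice by -1.92 in Anxa4 (adjusted p = 1.4e-08), -0.86 in Anxa2 (adjusted p = 8.6e-05) and -2.21 in Pbsn (adjusted p = 0.00021). For Slc36a1 and Fat2, 0 of 12 transporter genes and 0 of 9 cadherin-pathway genes were called with the transgene, and 1 and 0 without it, the former being Slc3a2, the heavy chain of amino acid exchangers (0.66, adjusted p = 0.0226). For Glra1, 0 of 8 genes of the glycinergic synapse were called with the transgene and 1 without it, the scaffold gene Gphn (0.46, adjusted p = 0.0254). Against TRAMP alone Fxr2 was not called, and against wild-type alone neither Yif1b, G3bp2, Slc3a2 and Gphn nor Hint1 and Ublcp1 were, with differences of -0.25 for Fxr2 and 0.28 to 0.67 for the others. These 2 comparisons called only 0.027% and 0.225% of all probe sets.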

How the data were processed

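RNA of 68 mouse samples was read by the authors on Clariom S arrays. The authors' deposited table holds log2 values per probe set and array, made with RMA in oligo, per the submitters' processing notes; versions and genome build: not given in the sources used here. No columns (0) were left unused. Array medians ran from 6.25 (S7) to 6.34 (ST26). Of 29129 probe sets, 6923 controls were set aside and 22206 tested without a filter.

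Gene names came from the platform annotation, and gene order from a RefSeq table of GRCm38.p6, used for names and order only. The brightest probe set stood for a gene. Groups came from the labelled genotype and age; array O12 was left out. Limma 3.58.1 (R 4.3.3; lmFit, eBayes) was fitted to 38 arrays with the transgene, 29 without, and all 67 with arrayWeights by transgene state (1.11 with, 0.87 without), with Benjamini-Hochberg adjustment over 22206 probe sets and a threshold of 0.05. The contrasts weight groups equally. The scripts were tested on simulated data.

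The 10 genes and all lists were chosen with earlier results of these data known. Other genes are named if they lie within 200 positions and were called in the same direction in both settings, if among the 3 largest called differences of a list, or if among the 3 highest correlations of a gene; Hint1, Ublcp1, the olfactory receptors and Mki67 where not called were named after their values were seen. Alternatives covered array O12, left-out arrays, AUC, age, weights, filters, centring, trend, controls, ages and windows. The number of arrays limits the precision, and p-values set the differences between groups against the spread between these animals.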

Additional observations from a re-analysis of the deposited data

Results flagged for a closer look

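Within single groups of the 10 genes, 11 arrays stood apart from the others of their group by Dixon's criterion, in 110 groups looked at; chance gives about 1 in 20. For Pttg1 this was OT13 of early OPN-null TRAMP (8.30), and for Tvp23b S9 of early SPARC-null (8.53). Anxa6 had 2, T13 of early TRAMP (8.001) and T6 of late TRAMP (7.78). Array B13 of early wild-type was low for Atox1 (8.93) and high for Ccdc69 (6.53), and array B6 of late wild-type was low for Slc36a1 (7.68) and high for Glra1 (5.36). The rest were G3bp1 in OT9 of early OPN-null TRAMP (7.10), Gm2a in ST27 of early SPARC-null TRAMP (7.16) and Glra1 in S1 of early SPARC-null (5.82).

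The SPARC difference of Pttg1 differed between mice with and without the transgene by 0.75 (SE 0.14) on the log2 scale. Both of its parts belong to the contrasts that chose the genes, so it is given without a p-value.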

How the results depend on the processing

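Of 489 comparisons of 42 results with an alternative, 426 counted as the same, and none changed the sign of a called value. Tested genes had to keep their side of the threshold, and their direction if called. Counts had to stay within a fixed ratio. Differences of the 10 genes and their medians had to move by less than the replicate SD, and a lost call was not considered for them. Without the transgene Pttg1 stayed between -0.87 and -0.55 and Tvp23b between 0.14 and 0.47 over the alternatives; with it Tvp23b stayed between 0.35 and 0.51. The count of other chromosome 11 genes depended most on the setting. With the transgene (15) it was 28 with AUC as a covariate, 0 against TRAMP alone, 39 (10%) against OPN-null TRAMP alone, 0 in early and 59 in late mice. Within 50, 100 and 400 positions it was 1 of 92 (1.09%), 3 of 192 (1.56%) and 31 of 741 (4.18%), against 4.54% of all. Without the transgene (24) it was 2 with AUC and 0 with age as a covariate, and 174 with 1 weight per array (35.5% of all probe sets called). Against wild-type alone it was 1, against OPN-null alone 54, and in early mice 0. Within 50, 100 and 400 positions it was 8 of 92 (8.7%), 17 of 192 (8.85%) and 51 of 741 (6.88%), against 4.58% of all. Apart from the windows, these counts moved with those over all probe sets. With the transgene the share of the 390 genes was 7.18% with AUC as a covariate, beside 6.84% of all. In late mice it was 15.1%, beside 16.1% of all. Without the transgene it was 44.6% with 1 weight per array, beside 35.5% of all. The median of the 10 differences was 0.13 without the transgene against OPN-null alone, and 0.18 in late mice both with and without it. Of the 10 genes, OPN-null TRAMP against TRAMP called 2 without arrays of AUC under 0.7, and OPN-null against wild-type 1 with 1 weight per array. SPARC-null TRAMP against SPARC-null called 2 without those arrays, 1 with AUC, 1 with age and 3 with 1 weight per array. The interaction called 0 against TRAMP and wild-type alone and 0 in early mice. The causes were not tested, except that fewer arrays enter the fits on 1 age or 1 control.

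Leaving out each array in turn gave 8 to 16 other chromosome 11 genes with the transgene, lowest without ST24, and 7 to 78 without it, lowest without S5 and highest without S1 (68 without O7). The medians of the 10 differences ran from 0.02 to 0.05 and from -0.03 to 0.05. The calls among the 10 genes ran from 0 to 1 for OPN-null TRAMP against TRAMP (1 without OT3), for age with the transgene (1 without T10) and for SPARC-null TRAMP against SPARC-null (1 without ST26, B6 or S1), and from 1 to 2 for TRAMP against wild-type (1 without B5 or B11). No paired analysis was possible because the labels give each animal a code of its own. Signal limits Glra1, whose probe set lay below most negative controls.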

Other observations

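Against TRAMP or wild-type mice alone, 2 probe sets were called in SPARC-null mice in both settings, and neither has a single gene name. They were chosen here after their values were seen. Probe set TC0M00000009.mm.2 had a lowest, median and highest log2 level of 8.57, 9.62 and 9.86 in 15 SPARC-null TRAMP mice and of 10.75, 11.75 and 12.43 in 23 SPARC-intact mice with the transgene, with no overlap. Without the transgene the levels were 8.97, 9.47 and 11.70 in 11 SPARC-null mice and 11.28, 11.96 and 12.69 in 18 SPARC-intact mice. The 2 SPARC-null arrays above 10 were S11 and S6, at 11.70 and 11.44, and their Pttg1 levels of 7.04 and 7.23 lay within the SPARC-null range.

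Probe set TC0100001206.mm.2 was below 10 in all 15 SPARC-null TRAMP mice (6.85 to 8.23) and all 11 SPARC-null mice (7.03 to 8.46). It was above 10 in 16 of 23 SPARC-intact mice with the transgene and in 16 of 18 without it. The 3 late OPN-null TRAMP arrays, at 7.57, 7.66 and 7.93, were among the low ones.

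Array O12, labelled SPARC-/- TRAMP -/- but coded with the letter of the OPN-null samples, had 11.76 and 12.36 for these probe sets, both above 10. Its Tvp23b level of 8.23 lay inside the SPARC-null range and above the highest OPN-null and wild-type arrays. The genotype of this array is not settled here.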
